A study of Mus musculus with 6 samples.

Results

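The 9 genes described here encode the surface and secreted molecules with which an antigen-presenting cell speaks to T cells and B cells: Cd40, Cd80, Cd86, Icosl, Cd274, Pdcd1lg2, Tnfsf9, Tnfsf13b and Tnfsf13. They were chosen by name for their known roles, with earlier results of these data known, and all 9 were found among the 55401 genes of the count table. They were compared between microglia of MRL/lpr mice, a lupus-prone strain that carries the lpr mutation of the death receptor gene Fas, and microglia of MRL/mpj mice, the control strain of the same background without that mutation. Each strain gave 3 RNA-seq libraries from brains of untreated mice aged 6 weeks, and the cells were enriched by a Percoll gradient and magnetic selection for CD11b, a surface protein that other myeloid cells carry too. The comparison asks which genes differ in the brain macrophages of lupus mice at an early age. How many animals stand behind a library, and whether the libraries of a strain came from separate animals, is not given in the sources used here, so p-values measure the spread between these libraries, which may be technical.

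A T cell that meets its antigen needs a second signal, which CD80 and CD86 give through CD28, and the same ligands are bound more tightly by the inhibitory receptor CTLA4. ICOSL gives a related signal through ICOS, 4-1BBL (Tnfsf9) through 4-1BB, and PD-L1 (Cd274) and PD-L2 (Pdcd1lg2) hold T cells back through PD-1. CD40 is the receptor by which the presenting cell receives CD40L from helper T cells, while BAFF (Tnfsf13b) and APRIL (Tnfsf13) are secreted and sustain B cells and plasma cells through the receptors BAFFR, TACI and BCMA. BAFF is known for its role in lupus and is the target of an approved antibody, and microglia are known to raise several of these molecules when activated.

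Tnfsf13b, Cd80, Cd274, Cd40 and Icosl were higher in MRL/lpr microglia, by 6.74-fold, 3.26-fold, 2.16-fold, 2.10-fold and 1.499-fold. Cd86, Tnfsf9 and Tnfsf13 did not pass the test, and Pdcd1lg2 had too few counts to enter it. A gene was called at a Benjamini-Hochberg adjusted p under 0.05 over all 19554 genes tested with edgeR's quasi-likelihood test. Of the 9 genes 8 were tested, 5 were called higher and 0 lower, where 11.1% of all genes tested were called higher and 9.06% lower. DESeq2 also called 0 of the 9 lower. At an unadjusted edgeR p under 0.05, 5 of the 8 were higher and 1, Tnfsf9, was lower. Of all 19554 genes tested, 3185 were higher and 3039 lower at that threshold. With the study's further minimum of 1 on the log2 fold change, 4 of the 8 were called higher and 0 lower, where 4.67% and 3.66% of all genes tested were called. With library size only 2 of the 8, Tnfsf13b and Cd80, passed that minimum, as Cd274 (0.99) and Cd40 (0.94) fell just under it, and 3 or 4 passed with a library left out. The 3 MRL/lpr libraries lay above all 3 MRL/mpj libraries for 5 of the 8 genes and below them for 2, Cd86 and Tnfsf9, where 19.6% of all genes tested lay above and 19.4% below. The median log2 fold change was 0.83 over the 8 genes and -0.01 over all genes tested.

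**Figure D1:**
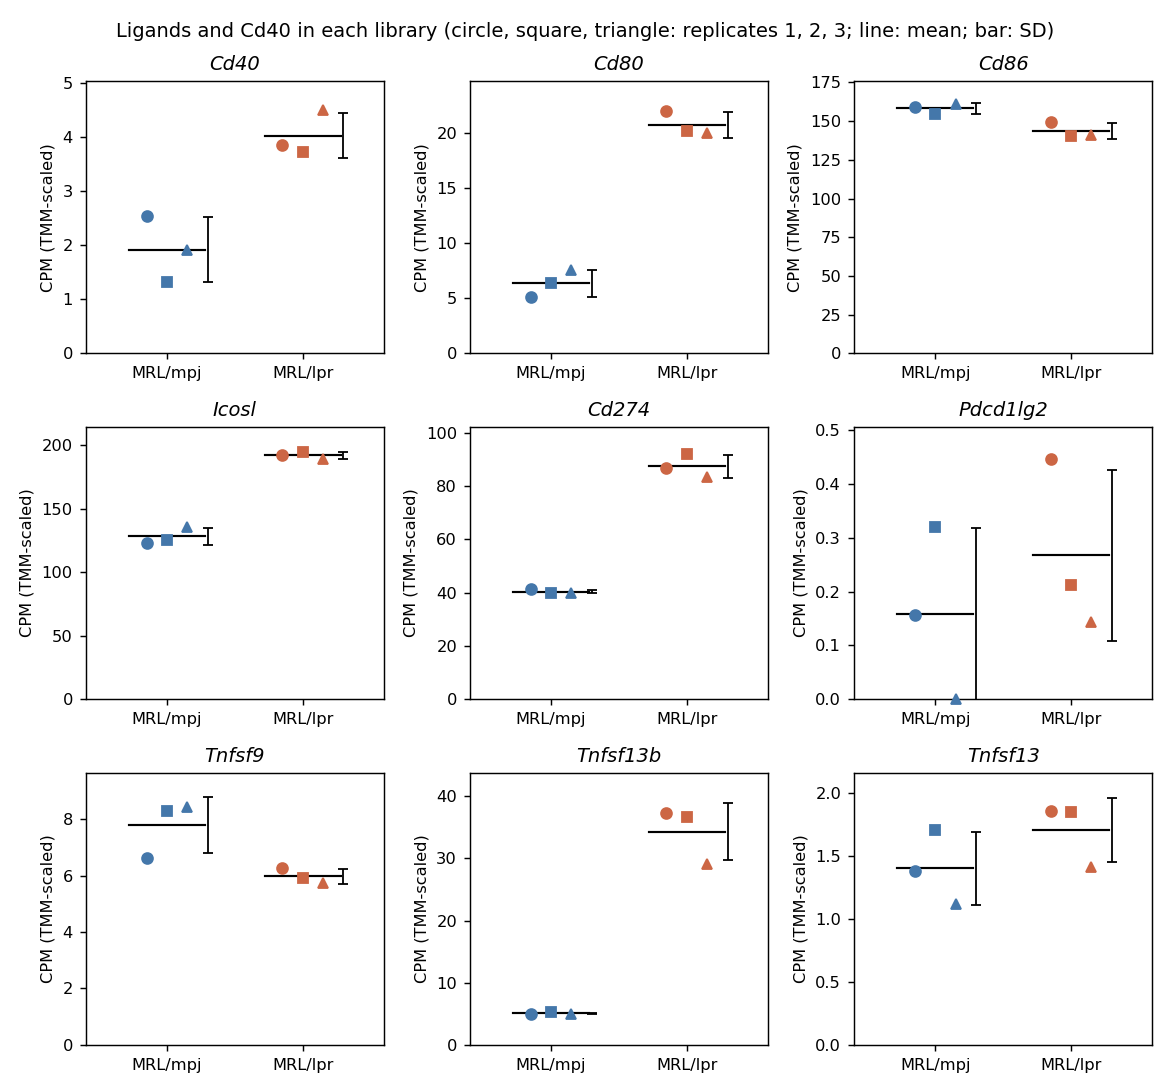
Level of each of the 9 genes in every library, in CPM (counts scaled to a fixed library size, linear axis from 0, a scale of its own in each panel), in MRL/lpr and MRL/mpj microglia. Circles, squares and triangles are replicates 1, 2 and 3, the line is the mean and the bar the SD (n = 3). Tnfsf13b lay at 29.1 to 37.3 CPM in MRL/lpr and 5.001 to 5.22 CPM in MRL/mpj, while Tnfsf13 and Pdcd1lg2 overlapped between the strains.

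The libraries were of similar depth, from 45481609 to 49846634 counts. CPM values below are scaled by TMM, which corrects for differences in composition. The microglial markers P2ry12, Tmem119, Cx3cr1, Sall1, Fcrls and Csf1r summed to between 14150 and 17300 CPM in each library, and the B-cell markers to between 8.58 and 10.5 CPM. Most of the microglial sum was Csf1r, at 9341 to 12351 CPM. Cx3cr1 gave 2819 CPM in MRL/lpr replicate 2 against 226 and 247 CPM in replicates 1 and 3. P2ry12, Sall1 and Fcrls lay lower in each MRL/lpr library and the other markers overlapped, so similar sums do not show an equal share of microglia. MRL/lpr replicate 3 stood apart, with 6.38% of its counts on the single gene CT010467.1, annotated as rRNA, against 0.169% to 0.457% elsewhere. The log2 fold change of each of the 8 tested genes is therefore also given without this library. The mitochondrial share of counts was 3.06% to 3.49% in MRL/lpr and 5.84% to 6.38% in MRL/mpj. Xist, the RNA that coats the inactive X chromosome of female cells, had 8886 to 11319 counts in MRL/lpr and 27 to 38 in MRL/mpj, although the study's methods describe female mice, and a difference in sex cannot be told apart from the difference in strain. Fas had 461, 282 and 298 counts in MRL/lpr and 426, 432 and 362 in MRL/mpj. A count over the whole gene does not check the lpr mutation, which is an insertion in an intron. The cells were sequenced in bulk, so fewer cells of a type and less RNA per cell cannot be told apart.

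Among the ligands of the CD28 family, Cd80 was the one with the larger difference. Cd80 (ENSMUSG00000075122, chr16:38455561-38496335, plus strand, GRCm38) had 1038, 950 and 836 counts in MRL/lpr and 262, 321 and 395 in MRL/mpj. The lowest MRL/lpr library still lay far above the highest MRL/mpj library. In CPM it was 20.8 ± 1.15 against 6.37 ± 1.25 (SD, n = 3 each), a log2 fold change of 1.70 (SE 0.16, 95% interval 1.34 to 2.07, edgeR adjusted p = 7.91e-05). Without MRL/lpr replicate 3 the log2 fold change was 1.73.

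Cd86, its partner ligand, did not rise with it. Cd86 (ENSMUSG00000022901, chr16:36603869-36666081, minus strand) had 7017, 6607 and 5896 counts in MRL/lpr and 8174, 7714 and 8388 in MRL/mpj. Each MRL/lpr library lay below each MRL/mpj library, by a small step. The means were 144 ± 4.94 and 158 ± 3.54 CPM, with a log2 fold change of -0.14 (SE 0.06, 95% interval -0.28 to 0.00, edgeR adjusted p = 0.164). Its call depended on the scaling: with library size only, which moves the median of all genes by -0.12 on the log2 scale, the value was -0.26 with an adjusted p of 0.0272. Without MRL/lpr replicate 3 the log2 fold change was -0.12.

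Icosl, the ligand of ICOS, was among the most abundant of the 9 genes in both strains. Icosl (ENSMUSG00000000732, chr10:78069302-78083913, plus strand) had 9042, 9175 and 7906 counts in MRL/lpr and 6343, 6262 and 7070 in MRL/mpj. The strains did not overlap, and the scaled values were close within each, 192 ± 2.88 against 128 ± 6.73 CPM. The log2 fold change was 0.58 (SE 0.07, 95% interval 0.44 to 0.73, edgeR adjusted p = 0.000241), below the study's minimum of 1, and 0.60 without MRL/lpr replicate 3.

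Of the checkpoint ligands, PD-L1 was well measured and PD-L2 close to absent. Cd274, which encodes PD-L1 (ENSMUSG00000016496, chr19:29367455-29388095, plus strand), had 4071, 4330 and 3487 counts in MRL/lpr and 2119, 1998 and 2078 in MRL/mpj. The MRL/mpj libraries were close to each other, and all 3 MRL/lpr libraries lay well above them. The means were 87.3 ± 4.33 and 40.4 ± 0.739 CPM, with a log2 fold change of 1.11 (SE 0.08, 95% interval 0.94 to 1.28, edgeR adjusted p = 1.08e-05). With library size only the value was 0.99, just under the minimum of 1, and without MRL/lpr replicate 3 it was 1.15.

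Pdcd1lg2, which encodes PD-L2 (ENSMUSG00000016498, chr19:29410919-29471161, plus strand), had 21, 10 and 6 counts in MRL/lpr and 8, 16 and 0 in MRL/mpj. The strains overlapped at these counts and no difference was detectable. Fitted without the filter on low counts, its log2 fold change had a 95% interval from -2.13 to 3.63. Both genes lie on the chromosome of Fas, Cd274 4902571 bases and Pdcd1lg2 4819505 bases before it. Within 10 Mb on either side of Fas, 18 of 154 genes tested (11.7%) were higher in MRL/lpr and 15 (9.74%) lower. These shares were close to the 11.1% and 9.06% of all genes tested.

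Of the TNF ligands, Tnfsf13b had the largest fold change of the 9 genes. Tnfsf13b (ENSMUSG00000031497, chr8:10006467-10039072, plus strand) had 1752, 1722 and 1215 counts in MRL/lpr and 257, 261 and 262 in MRL/mpj. The control libraries were nearly equal, and MRL/lpr replicate 3 was the lowest of its strain, still far above them. The means were 34.3 ± 4.55 and 5.09 ± 0.118 CPM, 6.74-fold (95% interval 5.50 to 8.27), with a log2 fold change of 2.75 (SE 0.13, edgeR adjusted p = 1.41e-06). Without MRL/lpr replicate 3 it was 2.86.

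Promoter windows of 3 genes are shown because Tnfsf13b, Cd80 and Cd274 were the genes with the smallest adjusted p. Each is the run of 250 bases before a transcription start of RefSeq on GRCm38.p6, written 5′ to 3′ on the gene's strand, and the capitals mark a match to the core of the interferon-stimulated response element, GAAANNGAAA. The windows lie at chr8:10006383-10006632 for the second of the 2 listed Tnfsf13b starts, at chr19:29367188-29367437 for Cd274 and at chr16:38458683-38458932 for Cd80, all on the plus strand.
Tnfsf13b, second start: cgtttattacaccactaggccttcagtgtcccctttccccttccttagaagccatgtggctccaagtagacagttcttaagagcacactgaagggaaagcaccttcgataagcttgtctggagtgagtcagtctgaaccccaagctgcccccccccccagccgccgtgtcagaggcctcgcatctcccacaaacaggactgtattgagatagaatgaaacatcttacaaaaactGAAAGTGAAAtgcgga
Cd274: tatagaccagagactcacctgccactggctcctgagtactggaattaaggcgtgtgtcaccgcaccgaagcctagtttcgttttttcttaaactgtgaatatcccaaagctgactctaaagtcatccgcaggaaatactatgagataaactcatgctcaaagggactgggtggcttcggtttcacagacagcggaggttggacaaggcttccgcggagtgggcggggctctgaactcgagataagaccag
Cd80: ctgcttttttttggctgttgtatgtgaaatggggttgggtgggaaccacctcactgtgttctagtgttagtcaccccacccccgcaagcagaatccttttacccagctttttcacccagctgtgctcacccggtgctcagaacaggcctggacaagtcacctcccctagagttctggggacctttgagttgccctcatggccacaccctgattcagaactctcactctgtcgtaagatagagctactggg
The Tnfsf13b match, GAAAGTGAAA, begins 16 bases before the second start and lies after the first, and the Cd274 and Cd80 windows hold none. The window of the first Tnfsf13b start, chr8:10006217-10006466, holds none either. The Cd80 window lies within the annotated gene, which begins at base 38455561, so bases before that beginning were not read. In all, 7 windows were found for 6 of the 9 genes, the others being those of Icosl, Pdcd1lg2, Tnfsf13 and the first Tnfsf13b start. On both strands the response element core was in 1 of the 7 windows and in 2.98% of the 32851 windows of all genes, and the gamma-activated site core TTCNNNGAA was in 0 of 7 and in 7.02%. The kappaB consensus was in 2 of 7, as GGAGCTCCCC 111 bases before the Icosl start and GGGGAATCCC 244 bases before the Pdcd1lg2 start, and in 7.25% of all windows. A match describes these letters and does not show that a factor binds.

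Tnfsf13, which encodes the related cytokine APRIL (ENSMUSG00000089669, chr11:69682846-69685784, minus strand), was low and gave no call. It had 87, 87 and 59 counts in MRL/lpr and 71, 85 and 58 in MRL/mpj, and the strains overlapped. The means were 1.70 ± 0.253 and 1.40 ± 0.293 CPM, with a log2 fold change of 0.28 (SE 0.32, 95% interval -0.44 to 1.01, edgeR adjusted p = 0.608), and 0.41 without MRL/lpr replicate 3. Its reads are uncertain, because the readthrough gene Tnfsfm13, which joins it to the neighbouring Tnfsf12, covers it on the same strand. Tnfsfm13 had 685, 684 and 516 counts in MRL/lpr and 607, 595 and 624 in MRL/mpj, more than Tnfsf13 itself in every library.

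Tnfsf9 (ENSMUSG00000035678, chr17:57105325-57107757, plus strand), the ligand of 4-1BB, had 294, 279 and 240 counts in MRL/lpr and 341, 414 and 439 in MRL/mpj. It lay lower in each MRL/lpr library than in each MRL/mpj library. The means were 5.97 ± 0.259 and 7.78 ± 0.998 CPM, and the log2 fold change of -0.38 (SE 0.17, 95% interval -0.76 to -0.00) did not pass after adjustment (edgeR adjusted p = 0.153). It was -0.35 without MRL/lpr replicate 3.

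Cd40 (ENSMUSG00000017652, chr2:165055627-165072948, plus strand), the one receptor of the 9, had 181, 175 and 188 counts in MRL/lpr and 130, 66 and 99 in MRL/mpj. The MRL/lpr libraries were close together and the MRL/mpj libraries spread more widely, without overlap. The means were 4.02 ± 0.418 and 1.92 ± 0.605 CPM, with a log2 fold change of 1.07 (SE 0.285, 95% interval 0.43 to 1.71, edgeR adjusted p = 0.0267). This call was the weakest of the 5: leaving out a library gave values of 0.86 to 1.32, and the call was lost without any one library other than MRL/mpj replicate 1, at adjusted p from 0.0554 to 0.0838. Without MRL/lpr replicate 3 the log2 fold change was 0.98 (adjusted p = 0.0678).

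Genes on the opposite strand overlap some of the 9, and the strand setting of the counting is not given in the sources used here. Gm44789, opposite Tnfsf13b, had 121, 102 and 100 counts in MRL/lpr and 4, 12 and 30 in MRL/mpj, so it moved with Tnfsf13b at a small part of its level. AC119228.1, opposite Cd274, had 165 to 388 counts, and A930007I19Rik, opposite Pdcd1lg2, had 29 to 105, more than Pdcd1lg2 in every library. Tnfsf13os, opposite Tnfsf13, had 7, 9 and 33 counts in MRL/lpr and 0, 0 and 17 in MRL/mpj. Gm11110, opposite Tnfsf9, had 0 to 15 counts. Cd40, Cd80, Cd86 and Icosl overlap no other annotated gene.

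**Figure D2:**
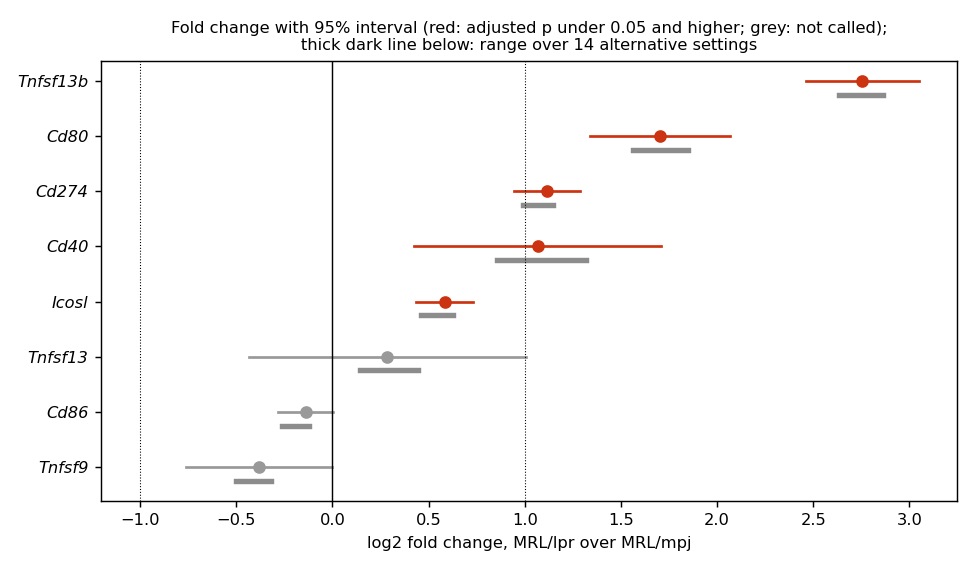
Log2 fold change, MRL/lpr over MRL/mpj, of the 8 tested genes, with bars for the 95% interval of edgeR's quasi-likelihood fit (n = 3 libraries a strain), in red for genes called higher and grey for others. The thick grey bar below each gene is the range over 14 alternative settings, and dotted lines mark 1 and -1. Tnfsf13b was at 2.75, Cd80 at 1.70, Cd274 at 1.11, Cd40 at 1.07 and Icosl at 0.58, and the intervals of Cd86 and Tnfsf13 include 0.

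Levels of different genes were compared per length, as the deposited FPKM (fragments scaled by gene length and sequencing depth). In MRL/lpr microglia Icosl (35.6 ± 1.61 FPKM) and Cd86 (33.6 ± 1.89) stood first and overlapped between libraries, followed by Cd274 (20.7 ± 1.57). Cd80 (4.80 ± 0.372), Tnfsf13b (4.28 ± 0.686) and Tnfsf9 (3.96 ± 0.276) came next, each overlapping its neighbour in this order, then Cd40 (0.993 ± 0.0681) and Tnfsf13 (0.88 ± 0.156), which overlapped, and last Pdcd1lg2 (0.113 ± 0.0681). In MRL/mpj microglia Cd86 stood alone at the top (40.2 ± 0.886 FPKM), above Icosl (25.8 ± 1.36), Cd274 (10.4 ± 0.182), Tnfsf9 (5.61 ± 0.718) and Cd80 (1.597 ± 0.310), with no overlap between neighbours. Tnfsf13 (0.783 ± 0.160), Tnfsf13b (0.68 ± 0.0173) and Cd40 (0.513 ± 0.165) followed, each overlapping the next, and Pdcd1lg2 was last (0.07 ± 0.07). The strains thus differed in which ligand led the order and in the place of Tnfsf13b, which was level with Tnfsf13 in MRL/mpj and with Cd80 in MRL/lpr.

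Ratios within a library do not depend on the scaling between libraries, and they were taken for ligands that share a receptor. The FPKM ratio of Cd80 to Cd86 was 0.146, 0.142 and 0.140 in the MRL/lpr libraries and 0.0317, 0.0410 and 0.0464 in the MRL/mpj libraries. The strains did not overlap, and Cd86 remained the more abundant ligand in all 6 libraries. The ratio of Tnfsf13b to Tnfsf13 was 4.87, 4.77 and 4.99 in MRL/lpr and 0.870, 0.737 and 1.06 in MRL/mpj, and the strains did not overlap. This ratio counts only reads assigned to Tnfsf13 itself: Tnfsfm13, which covers Tnfsf13 on the same strand, was at 5.67, 5.66 and 4.54 FPKM in MRL/lpr and 4.91, 4.95 and 4.99 FPKM in MRL/mpj, above Tnfsf13b in all 6 libraries, so which of the cytokines had more mRNA cannot be told from it. The ratio of Cd274 to Pdcd1lg2 was 110, 246 and 316 in MRL/lpr and 151 and 73.4 in MRL/mpj replicates 1 and 2, and it had no value in MRL/mpj replicate 3, where Pdcd1lg2 was listed at 0. That ratio overlapped between the strains and rests on the few counts of Pdcd1lg2. No test was made of these ratios, and 3 libraries against 3 cannot give an exact permutation p below 0.1.

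**Figure D3:**
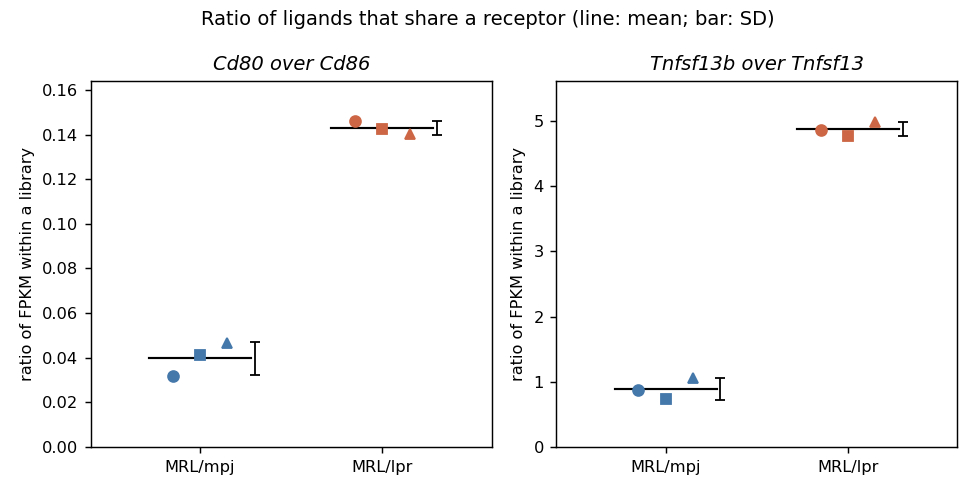
Ratio of the FPKM values of 2 ligands of a shared receptor in each library (linear axis from 0), for Cd80 over Cd86 and Tnfsf13b over Tnfsf13. Markers are replicates 1, 2 and 3, the line is the mean and the bar the SD (n = 3). The first ratio was 0.143 on average in MRL/lpr and 0.0397 in MRL/mpj, and the second was 4.87 and 0.890, with Tnfsf13 as deposited and Tnfsfm13 not included.

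The receptors and partners of these ligands are known mostly from lymphocytes, and which cells gave their reads here was not tested. Of the 9 in the list, 7 were tested, 3 were higher in MRL/lpr and 1 was lower, beside 11.1% and 9.06% of all genes tested, with a median log2 fold change of 0.26. Pdcd1, which encodes PD-1, the receptor of PD-L1, had 95, 137 and 106 counts in MRL/lpr and 1036, 871 and 964 in MRL/mpj. It was the one that fell, from 18.7 ± 1.38 CPM in MRL/mpj to 2.49 ± 0.447 CPM in MRL/lpr, a log2 fold change of -2.91 (SE 0.17, edgeR adjusted p = 4.96e-06). Ligand and receptor therefore differed in opposite directions between the strains. The T-cell markers given below summed to 4.44 to 4.77 CPM in MRL/mpj, below Pdcd1, and to 16.4 to 24.6 CPM in MRL/lpr, above it.

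Cd28, the activating receptor of CD80 and CD86, had 187, 161 and 90 counts in MRL/lpr and 13, 46 and 42 in MRL/mpj, a log2 fold change of 2.27 (SE 0.48, edgeR adjusted p = 0.00873). Ctla4, their inhibitory receptor, had 147, 96 and 85 counts in MRL/lpr and 0, 8 and 17 in MRL/mpj, a log2 fold change of 3.86 (SE 0.82, edgeR adjusted p = 0.0109), which was lost without MRL/mpj replicate 2 (adjusted p = 0.0549). Both were at low counts, and T-cell markers moved with them: Cd3d, Cd3e, Cd3g, Cd4, Cd8a, Lck and Trac summed to 16.4 to 24.6 CPM in the MRL/lpr libraries and 4.44 to 4.77 CPM in the MRL/mpj libraries, with 6 of 7 called higher and none at 0 in all libraries. Cd3e alone had 103, 92 and 120 counts in MRL/lpr and 2, 0 and 9 in MRL/mpj. The part of these cells in the values of Cd28 and Ctla4 was not tested.

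Tnfrsf13b, which encodes TACI, a receptor of both BAFF and APRIL, had 3339, 3515 and 3176 counts in MRL/lpr and 3299, 3002 and 3192 in MRL/mpj. The scaled values were 73.9 ± 2.58 and 61.9 ± 2.12 CPM, and the log2 fold change of 0.26 passed narrowly (SE 0.07, edgeR adjusted p = 0.0366) and was lost with library size only (0.13, adjusted p = 0.256) and without any one library other than MRL/lpr replicate 3 (adjusted p from 0.0585 to 0.141). Per length Tnfrsf13b was at 22.3 FPKM in MRL/lpr, near Cd274 at 20.7 FPKM. In MRL/mpj it was at 20.3 FPKM, well above Cd274 at 10.4 FPKM. Icos (log2 fold change -0.38), Tnfrsf17, which encodes BCMA (-0.39), and Tnfrsf13c, which encodes BAFFR (0.29), did not pass, at edgeR adjusted p of 0.33, 0.187 and 0.802. Tnfrsf13c had 12 to 40 counts a library. The B-cell markers summed to 8.58 to 10.5 CPM across the libraries, below the level of Tnfrsf13b. Cd40lg and Tnfrsf9, which encodes 4-1BB, had at most 31 and 21 counts and were not tested.

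**Figure D4:**
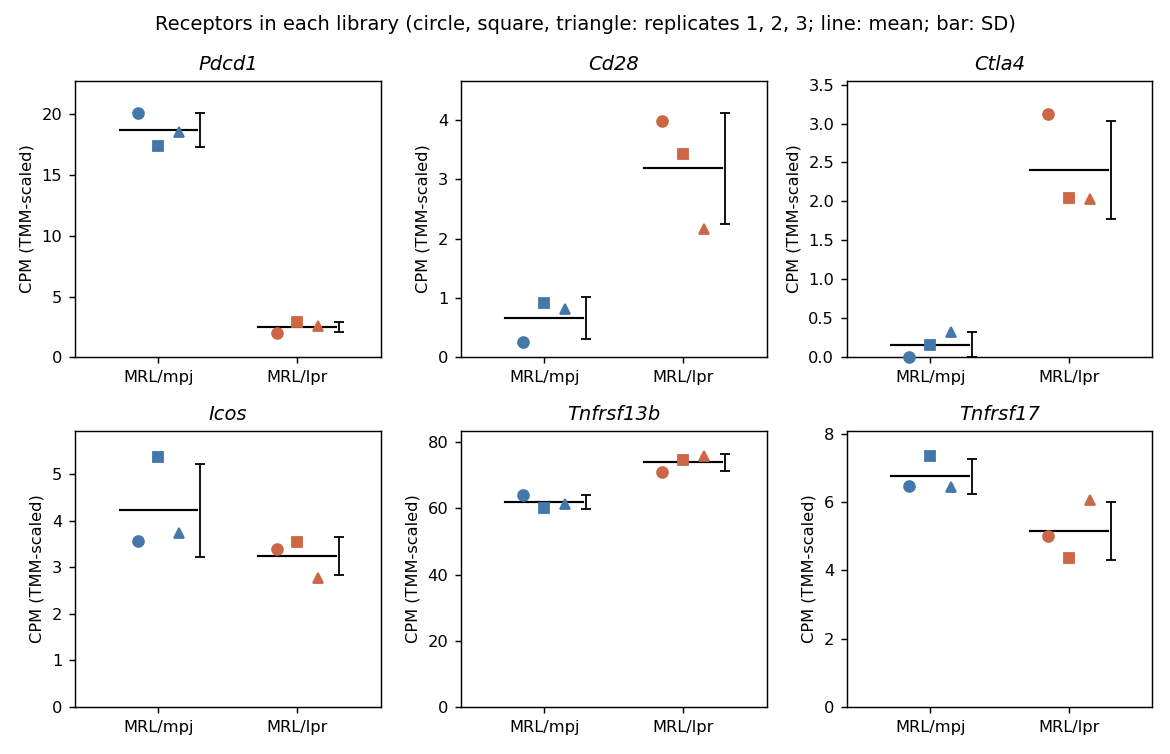
Level of 6 receptors of the ligands in every library, in CPM (linear axis from 0, a scale of its own in each panel). Circles, squares and triangles are replicates 1, 2 and 3, the line is the mean and the bar the SD (n = 3). Pdcd1 was at 2.49 CPM in MRL/lpr and 18.7 CPM in MRL/mpj on average, while Cd28 and Ctla4 were higher in MRL/lpr.

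The other ligands of the B7 and TNF families and other checkpoint ligands were read from a list of 16 genes. Of these 13 were tested, 4 were higher in MRL/lpr and 1 lower, beside 11.1% and 9.06% of all genes tested, with a median log2 fold change of 0.60. The one that fell was Cd276, which encodes B7-H3, a relative of PD-L1, with 730, 645 and 708 counts in MRL/lpr and 3763, 3614 and 3661 in MRL/mpj. Its log2 fold change was -2.23 (SE 0.10, edgeR adjusted p = 1.05e-06), so of the B7 ligands Cd80, Cd274 and Icosl rose while Cd276 fell. Cd86 (-0.14) and Vsir (0.09) did not pass, and Pdcd1lg2 and Vtcn1 were not tested. Higher were Tnfsf18, the ligand of GITR (1.24, adjusted p = 0.0274), Tnfsf12, which encodes TWEAK (0.80, adjusted p = 0.017), Tnfsf10, which encodes the death ligand TRAIL (0.68, adjusted p = 0.00107), and Pvr, a ligand of CD226 and TIGIT (0.60, adjusted p = 0.0027), all by edgeR. Tnfsf12 shares its locus with Tnfsfm13 and is uncertain for the same reason as Tnfsf13. The Tnfsf18 call was lost without any one library other than MRL/lpr replicate 2 (adjusted p from 0.0574 to 0.102), and the Tnfsf12 call without MRL/mpj replicate 2 (adjusted p = 0.0676) or 3 (adjusted p = 0.0689).

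Tnfrsf14, the ligand of the inhibitory receptor BTLA, missed the threshold narrowly (0.61, edgeR adjusted p = 0.0533), and DESeq2 called it (adjusted p = 0.0279), as did edgeR without MRL/mpj replicate 3 (0.78, adjusted p = 0.0357). Vsir, which encodes VISTA, and Lgals9, which encodes galectin-9, were abundant at 751 and 243 CPM in MRL/mpj and had log2 fold changes of 0.09 and 0.05 (edgeR adjusted p = 0.586 and 0.662), both of which turn negative with library size only (-0.04 and -0.08). Tnfsf8, Tnfsf11, Tnfsf14, Tnfsf15 and Nectin2 did not pass either, although Nectin2 was lower without MRL/lpr replicate 3 (-0.36, edgeR adjusted p = 0.00669) and Tnfsf11, with at most 34 counts, was higher without MRL/mpj replicate 2 (edgeR adjusted p = 0.0217). Cd70 and Tnfsf4 were near 0 and were not tested, and Vtcn1 had 0 counts in every library.

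CD40 and BAFF receptors signal through TRAF adaptors to the noncanonical NF-kB pathway, in which NIK (Map3k14) drives processing of the Nfkb2 product, the partner of RelB. Of the 13 genes of this list, all tested, 6 were higher in MRL/lpr and 0 lower, by edgeR and by DESeq2, beside 11.1% and 9.06% of all genes tested, with a median log2 fold change of 0.34. Nfkb2 had 6462, 6875 and 5891 counts in MRL/lpr and 3600, 3535 and 3818 in MRL/mpj, a log2 fold change of 0.99 (SE 0.07, edgeR adjusted p = 1.04e-05). Relb rose by 0.84 (adjusted p = 0.00372), Traf1 by 0.998 (adjusted p = 0.0139), and Birc3, which encodes a ubiquitin ligase of this pathway, by 0.96 (adjusted p = 0.000463). Tnfaip3, which encodes the inhibitor A20 (0.64, adjusted p = 0.00271), and Traf6 (0.58, adjusted p = 0.0012) were also higher. The Tnfaip3 call was lost without MRL/lpr replicate 3 (0.68, adjusted p = 0.0585), and the Traf1 call without MRL/mpj replicate 1 (adjusted p = 0.0547) or 2 (adjusted p = 0.059). Map3k14, Chuk, Birc2, Traf2, Traf3, Traf4 and Traf5 did not pass, although Map3k14 did so without MRL/lpr replicate 3 (0.24, adjusted p = 0.0462). Nfkb2, Relb, Birc3 and Tnfaip3 are also known targets of NF-kB in general.

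The last list held genes that act on surface levels of these ligands, and also Rgmb, which is a partner of PD-L2 and not such a gene. All 5 were tested, 3 were lower in MRL/lpr and 1 higher, beside 9.06% and 11.1% of all genes tested. The median log2 fold change was -0.32, and Rgmb is one of the 3 counted lower. March8, a ubiquitin ligase of membrane proteins, had a log2 fold change of -0.84 (edgeR adjusted p = 0.0073). March1, which removes CD86 and MHC class II from the surface, had -0.26 and did not pass (edgeR adjusted p = 0.18). Cmtm6, which protects PD-L1 from degradation, was higher by 0.31 (edgeR adjusted p = 0.00328), and its relative Cmtm4 was lower, at -0.32 (edgeR adjusted p = 0.0426), a call lost in 7 of 14 alternatives, among them the fits without any one library other than MRL/lpr replicate 3 (adjusted p from 0.0982 to 0.137). Rgmb was lower at -0.42 (edgeR adjusted p = 0.00391). Only mRNA was measured here, not protein at the surface.

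**Figure D5:**
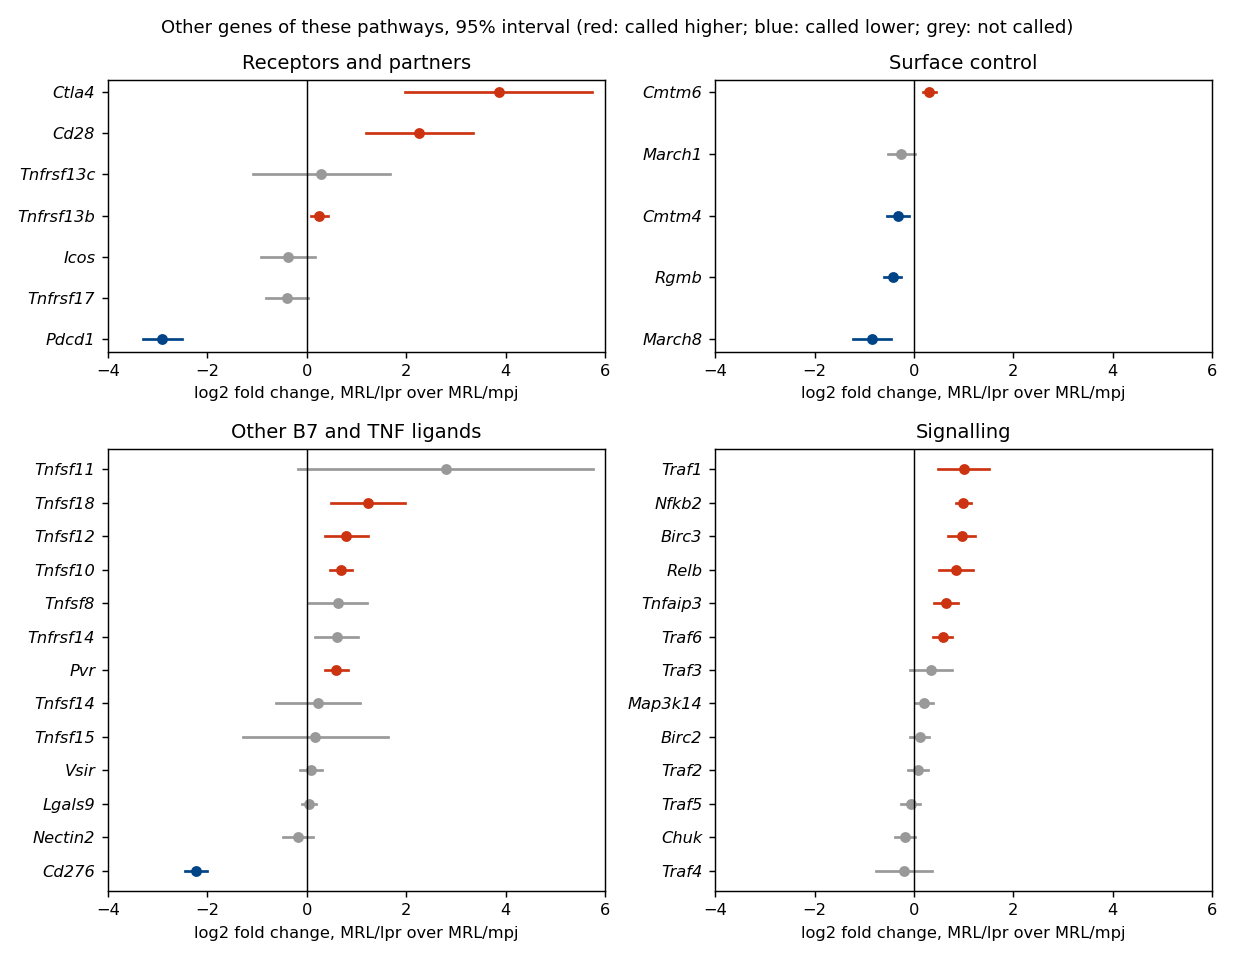
Log2 fold change, MRL/lpr over MRL/mpj, of the tested genes of the 4 related lists, with 95% intervals of edgeR's quasi-likelihood fit, in red where called higher, blue where called lower and grey otherwise. Pdcd1 at -2.91 and Cd276 at -2.23 lie to the left, and Ctla4 at 3.86 and Cd28 at 2.27 to the right.

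Markers of other cell types that the preparations could hold were read beside the 9 genes. Plasma-cell markers summed to 176 to 197 CPM in MRL/lpr and 148 to 157 CPM in MRL/mpj, most of it Xbp1 and Prdm1, which did not pass. Within that list Jchain, the joining chain of secreted antibody, had 647, 765 and 696 counts in MRL/lpr and 74, 72 and 42 in MRL/mpj, and Mzb1 had 25, 54 and 48 counts and 0 in each MRL/mpj library, both called higher, while Tnfrsf17 lay lower in each MRL/lpr library without passing. NK-cell markers summed to 9.83 to 11.1 CPM and 3.14 to 4.13 CPM, with 3 of 5 higher. B-cell markers were at 9.20 to 10.5 CPM in MRL/lpr and 8.58 to 10.2 CPM in MRL/mpj, with 0 of the 4 tested called, and Cr2 had 0 counts in every library. Dendritic-cell markers summed to 251 to 269 CPM and 271 to 293 CPM, with Ccr7 higher and Itgax lower. Most of that sum was Siglech, at 202 CPM in MRL/lpr and 192 CPM in MRL/mpj on average, which overlapped between the strains. The dendritic-cell sum thus rests mainly on Siglech and does not measure a share of dendritic cells. Monocyte markers summed to 64.0 to 73.8 CPM and 75.3 to 82.3 CPM, with Plac8 and F10 higher and Chil3 lower. Neutrophil markers summed to 1077 to 1142 CPM and 1118 to 1147 CPM, with S100a8 and Retnlg higher. Most of the neutrophil sum was Csf3r, at 783 CPM in MRL/lpr and 867 CPM in MRL/mpj on average. Csf3r lay lower in each MRL/lpr library without passing, Cxcr2 overlapped, and S100a8, S100a9, Ly6g and Retnlg lay above in each. The neutrophil sum therefore hides opposite differences among its genes, rests mainly on Csf3r and does not measure a share of neutrophils. Markers of macrophages at the brain's borders were at 50.6 to 52.1 CPM and 54.9 to 63.4 CPM, with Mrc1 and Cbr2 lower. Astrocyte markers summed to 83.5 to 123 CPM in MRL/lpr and 162 to 166 CPM in MRL/mpj, with Slc1a3 lower, and endothelial markers to 1330 to 1493 CPM and 1247 to 1289 CPM, with Flt1 higher and Tek lower. Among the microglial markers Fcrls was lower and none was higher, while the Cx3cr1 count of MRL/lpr replicate 2 was 132706 and those of replicates 1 and 3 of that strain were 10645 and 10334. The part of these cell types in the differences of the 9 genes was not tested.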

How the data were processed

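Microglial RNA-seq libraries were compared between both strains, with 3 of each. The authors trimmed the reads with Cutadapt and aligned them with HISAT2, and the submitters' processing notes also name GRCm38, Cufflinks and Cuffdiff 2.2.1. The labels describe a stranded library of total RNA depleted of rRNA, whereas the study's methods describe purified mRNA. The deposited counts per gene are whole numbers without normalization, and the authors also deposited FPKM values per library. The counting tool is not given in the sources used here. Between 1138 and 1288 genes a library had 4 counts, against 320 to 415 with 3 counts and 211 to 261 with 5 counts, so 4 was in excess of its neighbours, for a reason not given in the sources used here.

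Symbols and coordinates were taken from GENCODE M21 (GRCm38), where 55141 of 55401 identifiers were found. Counts of 6 libraries were fitted together with edgeR 4.0.16 in R 4.3.3 (filterByExpr at its default minimums, 10 counts and a total of 15, TMM, robust quasi-likelihood test, Benjamini-Hochberg adjustment), without covariates. The study's test, DESeq2 (version 1.42.0 here), was an alternative. The common biological coefficient of variation was 0.26. The median squared difference between replicates was 9.07 to 23.6 times that of sampling noise, highest with MRL/lpr replicate 3. No 2 libraries of a strain agreed within sampling noise, so none were merged, which does not show that they came from separate animals. The other alternatives were RLE factors, library size only, TMM from all but mitochondrial genes and the 20 genes with the most counts, no filter, counts divided by 4, dispersions that were not robust, a replicate block and each library left out. The code was tested on simulated data.

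The 9 genes, the lists and the rule for naming genes (the 9 genes, genes of the lists and marker lists, and the 2 genes most correlated with each of the 3 genes of smallest adjusted p) were chosen with earlier results of these data known. CT010467.1 and the genes that overlap the 9 were named after their values were seen. Of the marker lists, 2 genes are not reported here and were left out of the summed levels.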

Additional observations from a re-analysis of the deposited data

How the results depend on the processing

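Tnfsf13b, Cd80, Cd274 and Icosl kept direction and call in all 14 alternatives, with log2 fold changes of 2.64 to 2.86, 1.57 to 1.85, 0.99 to 1.15 and 0.46 to 0.63. Cd40 lost its call in 5 of the 6 fits that left out a library (0.86 to 1.32), and 4 or 5 of the 9 genes were then called higher. With library size only, Cd86 was called lower (-0.26), so 1 of the 9 genes was lower, 2 in place of 4 were higher and past the fold minimum, 2790 genes in all were lower in place of 1772, and Vsir (-0.038), Birc2 (-0.0099), Traf2 (-0.043) and Lgals9 (-0.075) turned negative. With libraries left out, lower calls over all genes ran from 1177 (without MRL/mpj replicate 1) to 1971, higher calls among the receptors from 1 (without MRL/mpj replicate 2) to 3, and lower calls among the other ligands from 1 to 2, Nectin2 being added without MRL/lpr replicate 3. Without 1 library, values with no call also changed sign for Vsir (-0.036 to 0.158), Tnfrsf13c (-0.031 to 0.63), Tnfsf15 (-0.21 to 0.47; -0.11 without MRL/mpj replicate 3) and Tnfsf14 (-0.0072 to 0.42). The cause of these changes was not tested. Same-numbered libraries had deviations correlated at -0.04, -0.02 and -0.03, so no pairing by replicate number was seen. With 3 libraries a strain this cannot show that same-numbered libraries were prepared apart. With the replicate block, 5 of the 9 genes were again called higher (Cd40 at 1.11, edgeR adjusted p = 0.0436) and 1754 genes in all were higher and 1309 lower; Tnfsf12, Tnfsf18, Cmtm4 and Tnfrsf13b lost their calls and Tnfrsf14 gained one. Counts were too few to test Pdcd1lg2. The order of the levels was the same with RPKM computed from the counts.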

Other observations

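Over the 6 libraries, on log2 CPM of 19554 genes, the profiles most like Tnfsf13b were those of Gm8750 (Pearson r = 0.9999) and Ighv5-4 (r = 0.99989), those most like Cd274 were Myo1g (r = 0.99965) and Ighv3-4 (r = 0.99962), and those most like Cd80 were Dennd4b (r = 0.99845) and Stard9 (r = 0.99834). These values describe 2 strains of 3 libraries each, which share strain and depth, and the 2 strains form separate clusters for these genes, so no relation within a strain can be read from them.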
